A study of Homo sapiens with 6 samples.

Results

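The genes described here encode the machinery of antigen presentation by major histocompatibility complex (MHC) class I molecules. They are the heavy chains HLA-B, HLA-C and HLA-E, the light chain B2M, the peptide transporter subunits TAP1 and TAP2, the loading factor TAPBP, and the peptidases ERAP1 and ERAP2. They were taken by name, each matched 1 Ensembl ID of the deposited count table, and all 9 passed the filter on low counts. They are 9 of 57773 genes in the table and of 15818 genes tested.

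Poly-A RNA was measured in U251, an established human glioblastoma line. One group carried a lentiviral PD-L1 construct (CD274) as a stable line, and the other carried the vector alone as its lentiviral control. Each group held 3 dishes, which had grown for 12 h since passaging with 10% serum and were at passages 5 to 10. Each group was 1 line, for which the labels do not say whether it was a clone or a pool, so p-values measure only the spread between dishes, which may be technical. In such bulk RNA, fewer cells that express a gene and less of its RNA per cell cannot be told apart.

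Class I molecules show short peptides from inside the cell to CD8 T cells. Proteasomes cut proteins into peptides, and the TAP1-TAP2 transporter carries these into the endoplasmic reticulum. There ERAP1 and ERAP2 trim them, tapasin (the product of TAPBP) holds empty class I molecules at the transporter while a peptide is fitted, and a heavy chain with B2M and its peptide moves to the cell surface. HLA-E mainly presents peptides from the leader sequences of other class I chains and is read by the NK cell receptor NKG2A. Interferons and NF-κB induce most of these genes, and PD-L1, which binds PD-1 on T cells, acts at the same contact between tumour cell and T cell.

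Total counts ranged from 15678989 to 22270509 per dish. CD274, the gene of the construct, was at 1309, 1356 and 1234 CPM (counts scaled to a common library size with TMM factors) in the PD-L1 dishes and at 1.56, 3.47 and 2.21 CPM in the Vector dishes. PD-L1 dish 3 stood apart from its replicates. Its chi-square values per degree of freedom against PD-L1 dishes 1 and 2 were 16.1 and 15.0, while those 2 dishes gave 3.04 against each other. The Vector dishes gave 5.27 to 10.0, highest for dish 1 against dish 2. For the 9 genes, values without a dish are given where leaving it out moved a call. For cell-type markers and for genes picked by correlation no such values are given, so the stability of their calls is not shown. Of 8 tested astrocyte and glioma markers 5 fell and 0 rose, where 7.2% of all genes tested were lower and 1.55% higher, and AQP4 was too low to test. The markers that fell were GFAP, FABP7, GJA1, SOX2 and NES. The astrocyte filament GFAP was at 1.70 ± 0.22 CPM in the PD-L1 dishes against 3.18 ± 0.56 CPM in the Vector dishes (mean ± SD, n = 3). NES was at 48.0 ± 9.93 and 74.9 ± 7.03 CPM. GLUL, at 504 ± 14.5 and 465 ± 10.1 CPM, did not pass (edgeR adjusted p = 0.350).

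Because the genes are known for shared regulatory elements, their promoters were examined first. RefSeq promoter windows of GRCh38.p14, from 250 bases before to 50 after a transcription start, were matched by symbol for 8 of the 9 genes. Each window was searched on both strands for an interferon-type motif (GAAA, any 2 bases, then GAAA), its shorter form GAANNGAAA, the NF-κB consensus and CCAAT. The 2 interferon-type motifs can overlap each other, as they do in TAP2 and ERAP2. The longer form was found in 6 of the 8 genes (B2M, TAP1, TAP2, TAPBP, ERAP1 and ERAP2), against 4.38% of the 27305 genes with a window. HLA-B and HLA-C held the shorter form, which 9.31% of all genes hold. The NF-κB consensus was found in 6 of the 8 genes, against 9.16% of all genes, and CCAAT in 5, against 39.7%.

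The stretches around these matches are printed from 5′ to 3′ on the strand of the gene, with matches to the interferon-type and NF-κB motifs in capitals, so that the order and spacing of the elements can be compared. The TAPBP stretch is chr6:33314068-33314149 on the minus strand, and holds an NF-κB match followed by 2 overlapping interferon-type matches just before the start. HLA-B (chr6:31357311-31357371) and HLA-C (chr6:31272220-31272279), also on the minus strand, resemble each other. In both, the NF-κB motif is followed by a shorter interferon-type match that reads on the opposite strand. These shorter matches lie 155 (HLA-B) and 151 (HLA-C) bases before the start, whereas those of TAPBP are of the longer form on the strand of the gene. In B2M (chr15:44711358-44711416, plus strand) the order is reversed. TAP2 (chr6:32838773-32838817, minus strand) and ERAP2 (chr5:96876450-96876494, plus strand) held interferon-type matches and no NF-κB match. ERAP1 has matches at both of its listed starts, in chr5:96807919-96808033 (start 2) and chr5:96814302-96814340 (start 1) on the minus strand. TAP1 (chr6:32853658-32853853, minus strand) held overlapping interferon-type matches and 2 NF-κB matches, in a stretch that lies beside PSMB9, its neighbour on the opposite strand.
TAPBP: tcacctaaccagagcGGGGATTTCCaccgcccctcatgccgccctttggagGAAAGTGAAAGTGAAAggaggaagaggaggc
HLA-B: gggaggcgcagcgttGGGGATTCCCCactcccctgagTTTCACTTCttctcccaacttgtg
HLA-C: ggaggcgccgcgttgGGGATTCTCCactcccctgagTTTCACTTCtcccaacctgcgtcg
B2M: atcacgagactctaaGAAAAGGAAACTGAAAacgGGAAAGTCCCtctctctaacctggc
TAP1: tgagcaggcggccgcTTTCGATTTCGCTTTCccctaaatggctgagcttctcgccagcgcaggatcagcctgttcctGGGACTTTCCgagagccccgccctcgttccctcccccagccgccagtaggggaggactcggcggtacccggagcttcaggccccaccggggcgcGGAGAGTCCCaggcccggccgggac
TAP2: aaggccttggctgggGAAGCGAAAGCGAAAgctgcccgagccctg
ERAP1, start 2: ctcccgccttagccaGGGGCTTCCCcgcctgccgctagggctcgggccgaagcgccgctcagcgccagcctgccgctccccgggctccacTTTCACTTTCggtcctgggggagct
ERAP1, start 1: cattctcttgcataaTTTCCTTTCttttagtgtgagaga
ERAP2: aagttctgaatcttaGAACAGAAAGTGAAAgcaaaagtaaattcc

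**Figure D1:**
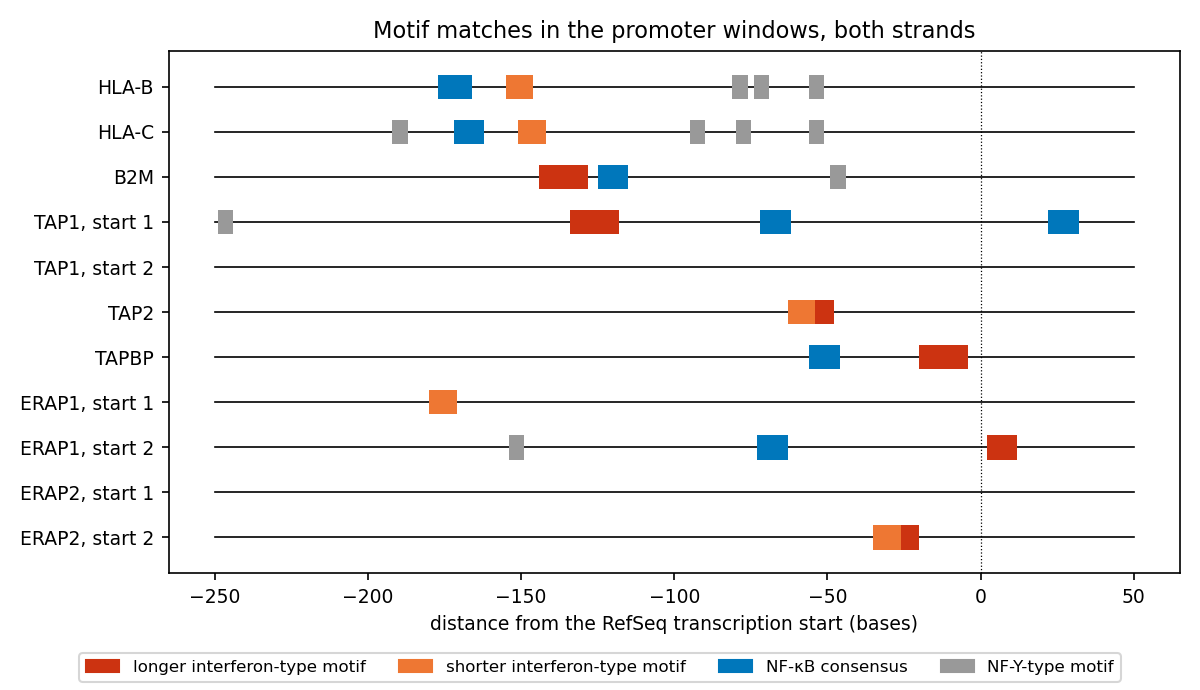
Positions of motif matches in the 300-base RefSeq promoter windows of 8 genes, 1 line per listed start; the x axis is the distance in bases from the transcription start, and colours mark the motif, with either strand drawn alike. An interferon-type match, in the longer or the shorter form, lies in at least 1 window of every gene drawn, close to the start in ERAP1, TAPBP and ERAP2 and farther upstream in HLA-B, HLA-C, B2M and TAP1.

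A match shows only that these letters are present. Over all genes tested that have a window, 437 held the longer interferon-type motif, of which 50 were lower and 7 higher in PD-L1 dishes. The lower share was 11.4% of them, against 7.24% of the 11112 tested genes without the motif, and the median log2 fold changes were -0.0040 and 0.012. These shares are given as a description and were not tested.

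Of the 9 genes, 2 fell and 0 rose in the PD-L1 dishes. In edgeR's quasi-likelihood test with Benjamini-Hochberg adjustment over all genes (false discovery rate, FDR, under 0.05), 8.75% of all genes tested were called, 7.2% as lower and 1.55% as higher. The median log2 fold change of the 9 genes was -0.22, and that of all genes 0.018. For 8 of the 9 genes the fold change was negative, as for 46.4% of all genes. In 4 of them (TAPBP, ERAP2, TAP1 and TAP2) every PD-L1 dish lay below every Vector dish. Over all genes the groups did not overlap for 27.6%, and 15.5% lay below in this way. Together the 9 genes took between 0.0937 and 0.115% of counts in PD-L1 dishes and between 0.104 and 0.121% in Vector dishes, ranges that overlap.

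**Figure D2:**
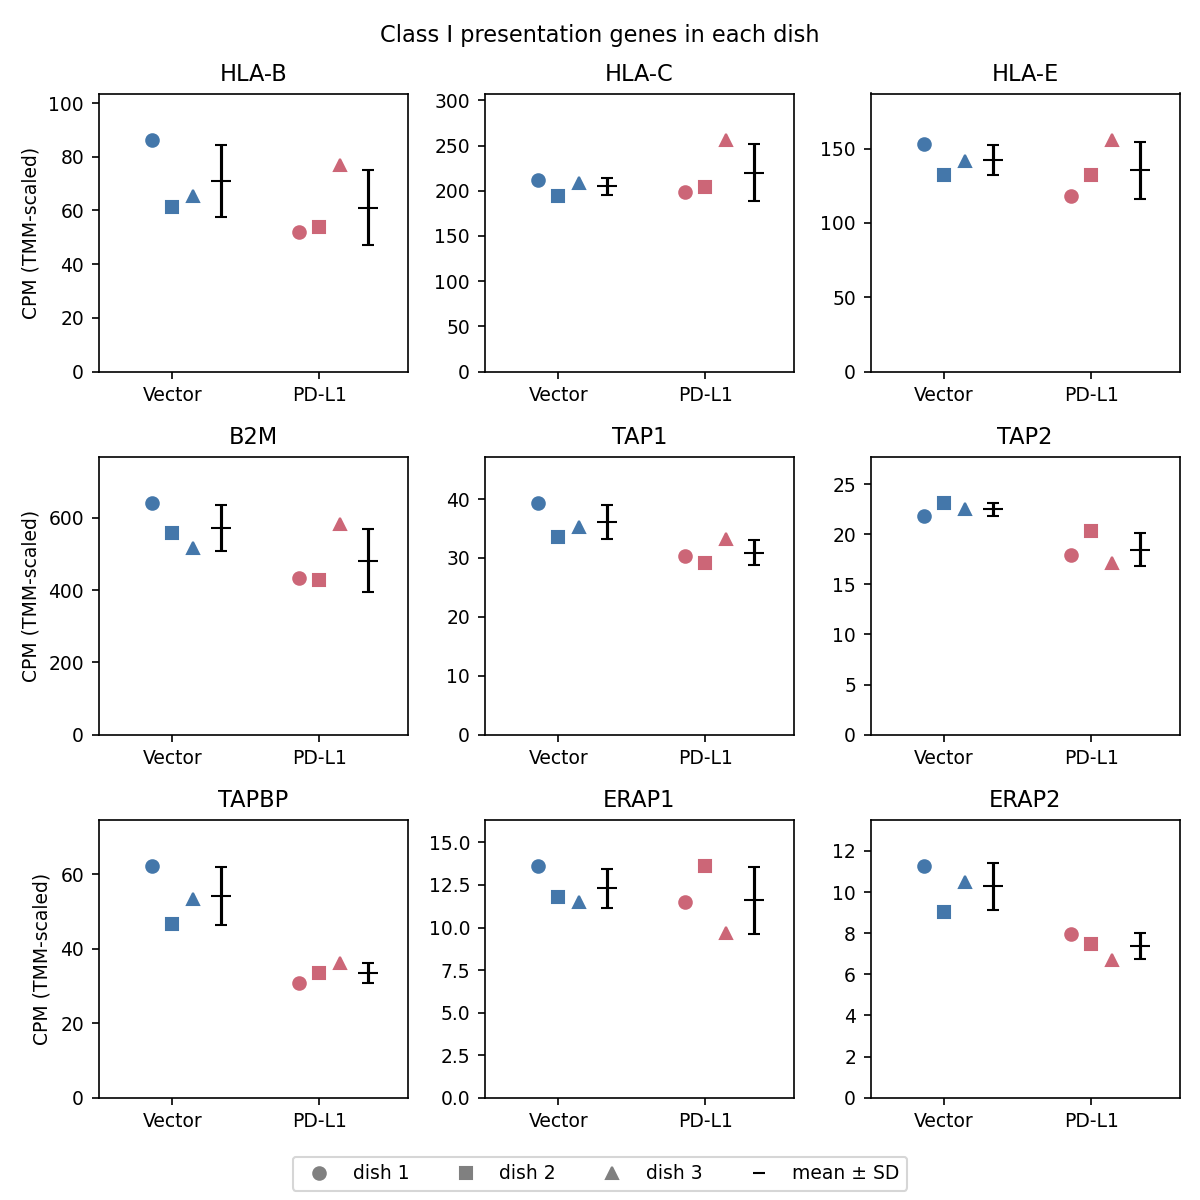
CPM of the 9 genes in each dish (y axes from 0, 1 panel per gene); symbols mark the dish number, blue the Vector and red the PD-L1 dishes, and bars the mean ± SD of 3 dishes. The groups are apart for TAPBP, ERAP2, TAP1 and TAP2 and overlap for the other genes, with PD-L1 dish 3 highest of its group for the heavy chains and B2M.

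The largest change of the 9 was in the loading factor. TAPBP (ENSG00000231925) was at 30.7, 33.6 and 36.1 CPM in PD-L1 dishes 1 to 3, and at 62.3, 46.7 and 53.5 CPM in Vector dishes 1 to 3. The lowest Vector dish was above the highest PD-L1 dish. TAPBP fell by 0.70 ± 0.11 (SE) on the log2 scale, which is 1.62-fold lower, with an adjusted p of 0.00132 in edgeR. It was called in all 17 alternative fits, including each that left out 1 dish, with log2 fold changes from -0.79 to -0.55.

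Of the 2 trimming peptidases 1 passed. ERAP2 (ENSG00000164308), which prefers peptides with basic first residues, was at 7.95, 7.46 and 6.69 CPM in the PD-L1 dishes, against 11.3, 9.04 and 10.5 CPM in the Vector dishes. The groups did not overlap, and ERAP2 fell by 0.48 ± 0.13 on the log2 scale (1.39-fold lower, edgeR adjusted p = 0.0389). These values rest on 121 to 245 reads per dish. The call was lost in 6 of 17 alternative fits: with upper-quartile scaling (adjusted p = 0.0511), with DESeq2 (0.0572), and on leaving out any 1 of 4 dishes. Its adjusted p was then 0.0734 (PD-L1 dish 1), 0.110 (PD-L1 dish 2), 0.187 (Vector dish 1) and 0.103 (Vector dish 3).

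ERAP1 (ENSG00000164307), the peptidase that trims peptides to the length class I molecules hold, was at 11.5, 13.6 and 9.69 CPM in the PD-L1 dishes, against 13.6, 11.8 and 11.5 CPM in the Vector dishes. The groups overlapped, and the log2 fold change was -0.09 ± 0.14 (edgeR adjusted p = 0.733). ERAP1 shares exonic sequence with CAST, the calpain inhibitor on the opposite strand, in GENCODE 29. CAST was at 86.3 ± 3.24 CPM in the PD-L1 dishes, against 97.6 ± 3.64 CPM in the Vector dishes, and because libraries were made without strand information, the level of ERAP1 is uncertain.

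Both transporter subunits were lower in every PD-L1 dish without passing the test. TAP2 (ENSG00000204267) was at 17.9, 20.3 and 17.1 CPM in the PD-L1 dishes, against 21.8, 23.1 and 22.5 CPM in the Vector dishes, a log2 fold change of -0.29 ± 0.10 (edgeR adjusted p = 0.0874). TAP1 (ENSG00000168394) was at 30.3, 29.2 and 33.2 CPM in the PD-L1 dishes, against 39.3, 33.6 and 35.3 CPM in the Vector dishes. Its log2 fold change was -0.22 ± 0.09 (edgeR adjusted p = 0.156). Without PD-L1 dish 3, TAP1 passed with a log2 fold change of -0.28 and an adjusted p of 0.0271, and TAP2 did not pass in any of the 17 alternative fits. The antisense transcript PSMB8-AS1, which overlaps TAP1 exons in GENCODE 29, held 0 to 3 reads per dish. TAP2 shares exons with the gene model AL669918.1 on its own strand, so its reads may be split.

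B2M (ENSG00000166710), the chain that every class I molecule needs, was at 434, 428 and 583 CPM in PD-L1 dishes 1 to 3 and at 641, 558 and 515 CPM in Vector dishes 1 to 3. PD-L1 dish 3 lay within the Vector range, and the other PD-L1 dishes lay below it. The log2 fold change over all 6 dishes was -0.25 ± 0.12 (edgeR adjusted p = 0.222). Without PD-L1 dish 3 it was -0.41 ± 0.078, with an adjusted p of 8.5e-04, so leaving out this 1 dish changed the call. B2M was also called without a low-count filter (adjusted p = 0.0364) and with a GC and length offset without PD-L1 dish 3 (0.0329), but not with that offset over all 6 dishes (0.351).

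None of the 3 heavy chains passed. HLA-B (ENSG00000234745), a classical chain, was at 52.2, 53.7 and 77.04 CPM in the PD-L1 dishes, against 86.3, 61.3 and 65.4 CPM in the Vector dishes. PD-L1 dish 3 was above 2 of the Vector dishes, and the log2 fold change was -0.22 ± 0.16 (edgeR adjusted p = 0.457). Leaving out PD-L1 dish 3 gave -0.43 and leaving out Vector dish 1 gave -0.05, and HLA-B passed in neither fit. HLA-B had the widest spread of the 9 genes, with a biological coefficient of variation of 13.96%, against 7.68 to 10.6% for the others.

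HLA-C (ENSG00000204525), the classical chain read by killer-cell immunoglobulin-like receptors, was at 199, 204 and 256 CPM in the PD-L1 dishes, against 212, 194 and 209 CPM in the Vector dishes. It was the only one of the 9 genes with a positive log2 fold change, 0.10 ± 0.09 (edgeR adjusted p = 0.547). With the offset for GC content and length HLA-C passed as higher, with a log2 fold change of 0.20 and an adjusted p of 0.0287, and again at 0.0335 when PD-L1 dish 3 was also left out, but not with the offset and the replicate block (0.0985). Without that dish and without the offset its log2 fold change was -0.024. Transcripts of HLA-C, HLA-B, HLA-E and TAPBP are rich in G and C (58.7 to 61.3%), while those of B2M, ERAP1 and ERAP2 hold 40.6 to 42.9%.

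HLA-E (ENSG00000204592) was at 118, 132 and 156 CPM in the PD-L1 dishes, against 153, 133 and 141 CPM in the Vector dishes. PD-L1 dishes 1 and 2 lay below every Vector dish and PD-L1 dish 3 above every one, so the groups overlapped, and the log2 fold change was -0.073 ± 0.098 (edgeR adjusted p = 0.697). Counts of HLA genes carry a further limit, since the loci differ between alleles and resemble each other. Reads that fit several loci, or an allele unlike the reference, can be lost or misplaced, and HLA-B and HLA-C also share annotated exons in GENCODE 29.

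**Figure D3:**
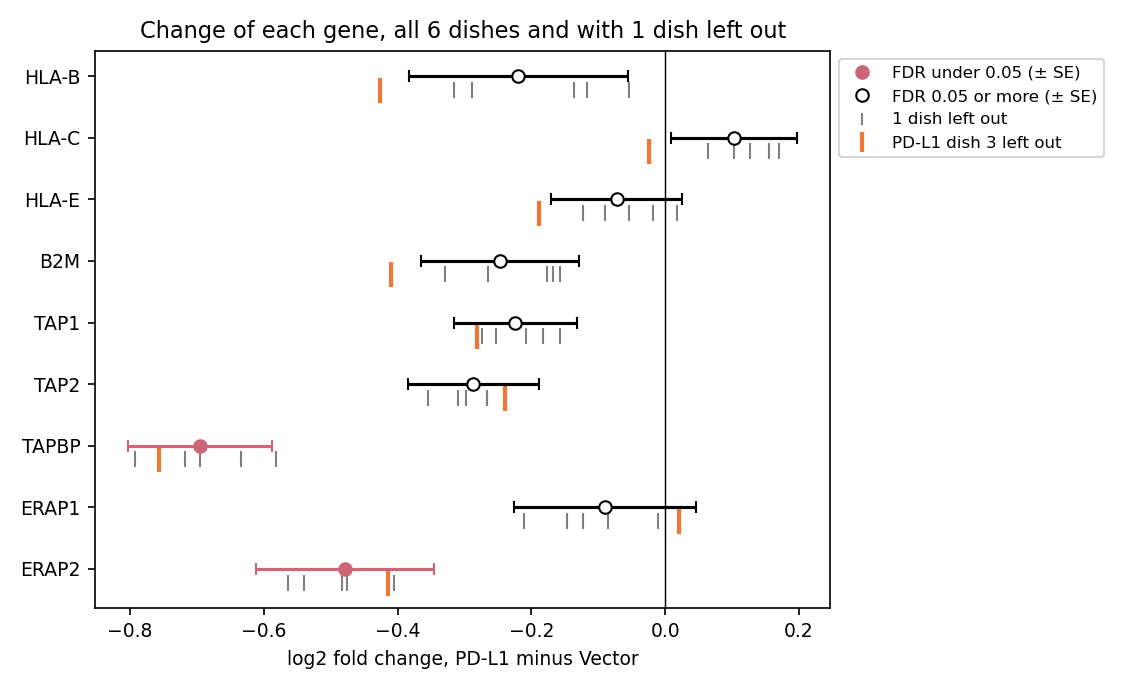
Log2 fold change (PD-L1 minus Vector) of each gene with its SE over all 6 dishes; filled red points have an FDR under 0.05, grey ticks are the fits that leave out 1 dish and the orange tick is the fit without PD-L1 dish 3. TAPBP stays between -0.79 and -0.58 in those fits, while B2M and HLA-B range from -0.41 to -0.16 and from -0.43 to -0.05, lowest when PD-L1 dish 3 is left out and nearest to 0 when Vector dish 1 is.

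Several of the genes were high in the same dishes of a group. HLA-B, HLA-C, HLA-E, B2M, TAP1 and TAPBP were each highest in PD-L1 dish 3 among the PD-L1 dishes and highest in Vector dish 1 among the Vector dishes. That pattern held for 6 of the 9 genes and for 20.1% of all genes tested. TAP2, ERAP1 and ERAP2 were instead lowest of their group in PD-L1 dish 3. Over the 6 dishes, log2 CPM of HLA-B correlated with that of B2M (Pearson's r = 0.94), HLA-E (0.92) and TAP1 (0.87), and that of TAPBP with TAP1 (0.93) and ERAP2 (0.89). The coefficients of HLA-C were lower, with 0.59 for HLA-B, 0.42 for B2M and -0.64 for ERAP1. These coefficients describe 6 dishes that share the group difference.

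Levels were compared between genes per kilobase of annotated exons (GENCODE 29). In Vector dishes B2M was highest at 94.0 ± 10.6 CPM per kilobase, followed by HLA-C at 81.7 ± 3.83, HLA-E at 47.8 ± 3.45 and HLA-B at 23.3 ± 4.40. TAPBP stood at 10.7 ± 1.55 CPM per kilobase, TAP1 at 7.51 ± 0.61 and TAP2 at 3.52 ± 0.11, and ERAP1 and ERAP2 at 1.55 ± 0.14 and 1.38 ± 0.15. The neighbours B2M and HLA-C, and ERAP1 and ERAP2, differed by little more than 1 SD, and the other steps in this order were larger. B2M was above 97.2% and HLA-C above 96.7% of tested genes on this scale, and ERAP2 above 28.3%.

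In PD-L1 dishes the order on this scale changed at 2 places, both of which depend on the length used. HLA-C was at 87.7 ± 12.6 and B2M at 79.2 ± 14.4 CPM per kilobase, with HLA-C first in 3 of 3 PD-L1 dishes and B2M first in 3 of 3 Vector dishes. TAPBP (6.62 ± 0.54) and TAP1 (6.43 ± 0.44) were close in PD-L1 dishes, with TAP1 ahead in dish 1 only, whereas TAPBP was above TAP1 in every Vector dish. With the length of the principal transcript in place of all exons, B2M was first in all 6 dishes, at 282 ± 51.4 CPM per kilobase in PD-L1 and 335 ± 37.7 in Vector dishes, and TAPBP was above TAP1 in all 6 dishes.

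Ratios of raw counts within a dish do not depend on scaling between dishes, but a bias with GC content or length need not cancel in them. In all, 6 such ratios were taken, each tested with an exact two-sided permutation test whose smallest possible p is 0.1 for 3 dishes against 3. TAPBP reads per B2M read were 0.0708, 0.0786 and 0.0620 in PD-L1 dishes and 0.0972, 0.0838 and 0.104 in Vector dishes. Every PD-L1 dish was below every Vector dish, and the log2 difference was -0.43 (exact p = 0.1, 0.2 adjusted over the 6 ratios). TAPBP transcripts hold 60.8% G and C and those of B2M 40.6%. With the GC and length offset, which the ratio lacks, the log2 fold changes were -0.56 for TAPBP and -0.31 for B2M.

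The ratio of ERAP2 to ERAP1 was 0.691, 0.548 and 0.691 in PD-L1 and 0.828, 0.768 and 0.911 in Vector dishes, again without overlap (log2 difference -0.38, exact p = 0.1, adjusted 0.2). HLA-B per HLA-C was 0.262, 0.263 and 0.301 in PD-L1 and 0.407, 0.316 and 0.313 in Vector dishes. The gap between the groups was narrow there, with a log2 difference of -0.32 (exact p = 0.1, adjusted 0.2). Groups overlapped for HLA-E per B2M (log2 difference 0.18, exact p = 0.3, adjusted 0.36), TAP1 per TAP2 (0.065, exact p = 0.8, adjusted 0.8) and TAP1 per PSMB9 (0.42, exact p = 0.2, adjusted 0.3).

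**Figure D4:**
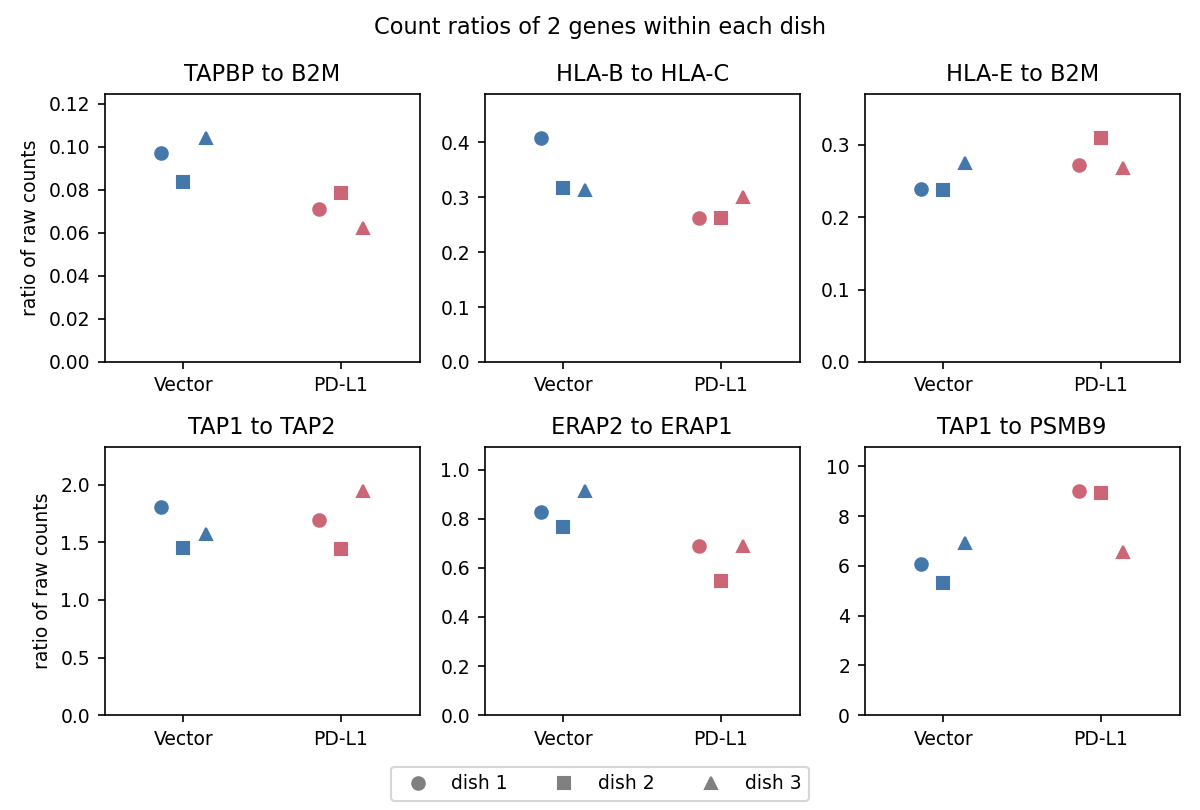
Ratio of the raw counts of 2 genes within each dish (y axes from 0), for 6 pairs; symbols mark the dish number, blue the Vector and red the PD-L1 dishes. The groups are apart for TAPBP to B2M, HLA-B to HLA-C and ERAP2 to ERAP1, and overlap in the other panels.

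The surrounding pathway was described with 9 further lists of 77 genes, 71 of them tested. Among the tested genes 3 fell and 1 rose, around a median log2 fold change of -0.047, where 8.75% of all genes were called. Peptides are made by the proteasome, whose interferon-inducible form carries PSMB8, PSMB9 and PSMB10. In the proteasome list 1 of 9 genes fell and 0 rose, though all 9 fold changes were negative (median -0.15). The gene that fell, PSME2, a subunit of the PA28 activator, was at 38.4 ± 4.30 CPM in the PD-L1 dishes against 48.5 ± 3.48 CPM in the Vector dishes (log2 fold change -0.34, edgeR adjusted p = 0.0431). It was called in 9 of 17 alternative fits, and of the fits that left out 1 dish only in that without PD-L1 dish 3. Its adjusted p reached 0.213 without Vector dish 1.

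PSMB9, head to head with TAP1, was at 3.37, 3.27 and 5.09 CPM in the PD-L1 dishes, against 6.49, 6.36 and 5.11 CPM in the Vector dishes. Its log2 fold change was -0.62 ± 0.19 (edgeR adjusted p = 0.0582), and -0.85 once PD-L1 dish 3 was left out (adjusted p = 0.00177). PD-L1 dish 3 and Vector dish 3 nearly met, while the other dishes lay well apart. PSMB9 shares exons with PSMB8 on the opposite strand and with PSMB8-AS1 in GENCODE 29, so its level is uncertain. PSMB8, named after its value was seen, had the same log2 fold change of -0.62 (edgeR adjusted p = 0.0650). Its groups overlapped, with PD-L1 dish 3 at 10.9 CPM and Vector dish 3 at 10.1 CPM. Because of the shared exons, the values of PSMB8 and PSMB9 may not be independent.

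Beside TAPBP, the loading and quality control genes showed 0 of 8 changes in edgeR (median log2 fold change -0.069). The lectin chaperones CANX and CALR, the most abundant of them, had log2 fold changes of 0.11 and -0.080 (adjusted p = 0.485 and 0.584). Of 7 peptidases beside ERAP1 and ERAP2, 0 changed (median -0.065). The most abundant, THOP1 and NRDC, which cut peptides in the cytosol, had log2 fold changes of -0.12 and -0.065.

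Among other class I and class I-like molecules 1 of 4 tested genes fell. HFE, which binds the transferrin receptor and pairs with B2M, was at 4.44 ± 0.53 CPM in the PD-L1 dishes against 6.48 ± 0.13 CPM in the Vector dishes (log2 fold change -0.54, edgeR adjusted p = 0.0347). It was called in 10 of 17 alternative fits, and of the fits that left out 1 dish only in that without PD-L1 dish 3. HLA-G held 0 or 1 read per dish and was not tested. Of 6 tested ligands of the NK receptor NKG2D 0 changed (median -0.055), with MICA and ULBP2 at log2 fold changes of -0.26 and -0.15 (edgeR adjusted p = 0.0804 and 0.503).

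The class I turnover list held the largest change around the pathway. MARCHF4, a membrane-bound ubiquitin ligase that can remove class I molecules from the cell surface, was at 4.25, 4.31 and 4.98 CPM in the PD-L1 dishes, against 11.2, 10.7 and 8.02 CPM in the Vector dishes. The groups were well apart, and MARCHF4 was 2.22-fold lower (log2 fold change -1.15 ± 0.16, edgeR adjusted p = 6.2e-04), and it was called in all 17 alternative fits. Among the 8 genes of this list 1 fell and 0 rose, with a median of -0.078.

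Of 13 transcription factors that act at class I promoters 0 changed (median 0.0094). The most abundant, RFX5 and RELA, had log2 fold changes of 0.16 and -0.10 (edgeR adjusted p = 0.186 and 0.421). NLRC5, the class I transactivator, named after its value was seen, was at 7.26 ± 1.51 CPM in the PD-L1 dishes against 9.01 ± 0.77 CPM in the Vector dishes (log2 fold change -0.32 ± 0.16, adjusted p = 0.237). In the interferon gamma list 1 of 8 genes rose and 0 fell. IFNGR1, the ligand-binding receptor chain, was at 63.3, 63.9 and 64.0 CPM in the PD-L1 dishes, against 52.3, 53.8 and 53.4 CPM in the Vector dishes. It rose by 0.26 ± 0.07 on the log2 scale (edgeR adjusted p = 0.0400), a call kept in 7 of 17 alternative fits and lost without any 1 dish other than PD-L1 dish 3 (adjusted p from 0.0800 to 0.154), with the replicate block (adjusted p = 0.169), without a low-count filter (0.102) and with the GC and length offset (0.0857).

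Of 8 tested MHC class II presentation genes 0 changed. Their median log2 fold change was 0.21, with HLA-DPA1 at 19.95 ± 2.40 CPM in the PD-L1 dishes against 17.1 ± 0.84 CPM in the Vector dishes (edgeR adjusted p = 0.225) and HLA-DRB1 at 12.4 ± 3.40 and 9.58 ± 1.94 CPM (0.237). HLA-DRA, the partner chain of HLA-DRB1, held only 1 to 11 reads per dish, and CIITA, the class II transactivator, 3 to 12. Both, like HLA-G, were named after their values were seen.

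**Figure D5:**
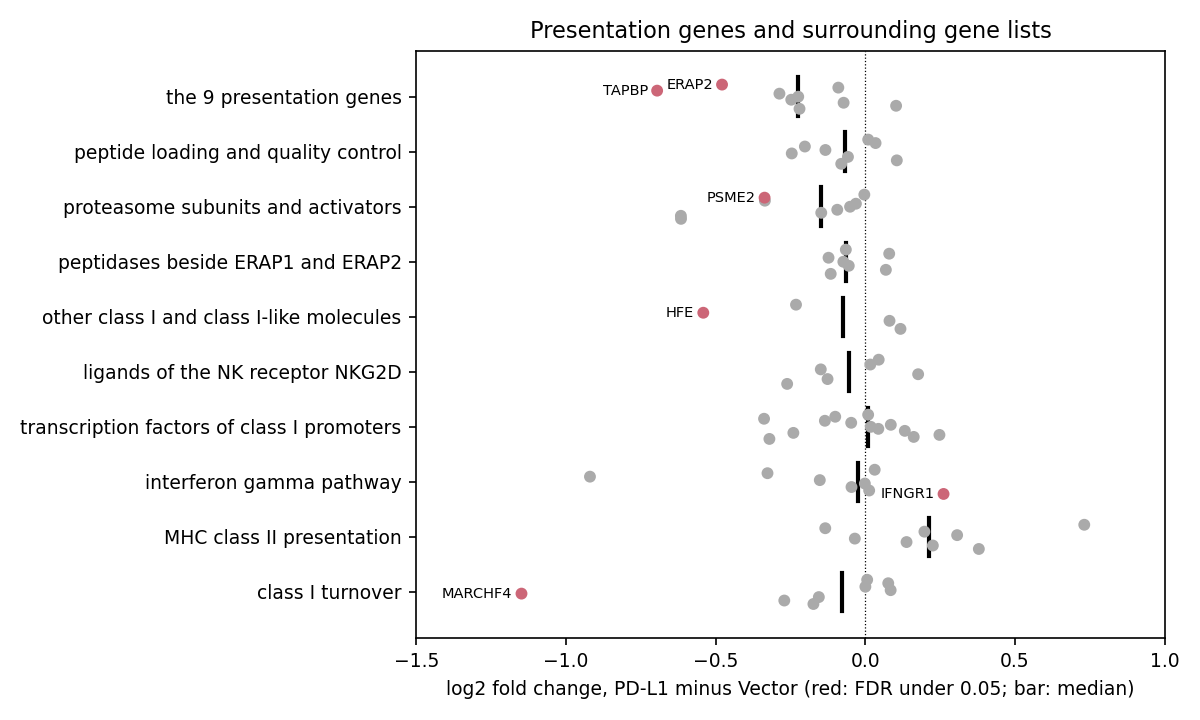
Log2 fold change (PD-L1 minus Vector) of the 9 presentation genes and of the tested genes of 9 surrounding lists; red points have an FDR under 0.05 and are labelled, grey points do not, and black bars are list medians. TAPBP, ERAP2, PSME2, HFE and MARCHF4 are the lower calls and IFNGR1 the higher one.

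Leukocytes express class I genes at high levels, so markers of myeloid cells and T cells were examined. Of the 8 microglia and macrophage markers 2 were tested, and AIF1 fell from 0.723 ± 0.136 to 0.0856 ± 0.0998 CPM (edgeR adjusted p = 0.0092). Its values rest on only 0 to 4 reads per PD-L1 dish and 12 to 18 per Vector dish. CSF1R, the other tested marker, had a log2 fold change of -1.05 and did not pass (edgeR adjusted p = 0.0547). The list summed to 1.79 to 2.46 CPM in PD-L1 and 3.13 to 3.96 CPM in Vector dishes. PTPRC, the pan-leukocyte gene, held 5 to 11 reads in every dish, and the complement genes C1QA and C1QB held 0 or 1. Of the 6 T-cell markers 2 were tested, and CD4, which macrophages also express, fell from 1.35 ± 0.20 to 0.21 ± 0.15 CPM (edgeR adjusted p = 0.0021). CD4 held 1 to 7 reads per PD-L1 dish and 23 to 33 per Vector dish. CD8A, the other tested T-cell marker, was at 1.07 ± 0.17 CPM in the PD-L1 dishes against 0.98 ± 0.30 CPM in the Vector dishes and did not pass (adjusted p = 0.815). That list summed to 1.34 to 2.10 CPM in PD-L1 and 2.64 to 2.91 CPM in Vector dishes, and CD2 was at 0 in all 6 dishes, which allows up to 0.135 to 0.191 CPM. Oligodendrocyte markers summed to 5.14 to 6.10 CPM in PD-L1 dishes and to 7.73 to 9.53 CPM in Vector dishes, with 1 gene tested that fell. Neuron markers summed to 16.5 to 19.3 and 17.4 to 18.4 CPM, and endothelial markers to 2.28 to 2.89 and 1.61 to 2.26 CPM, with 0 changes. The part of these markers in the results was not tested.

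The genes most like TAPBP over the 6 dishes, among 11386 genes with a mean of at least 5 CPM, were ECE1 (the endothelin-converting enzyme), LZTS1 and ZMIZ2, with Pearson's r from 0.9987 to 0.9993. Their log2 fold changes were -0.67, -0.96 and -0.41, and each passed (edgeR adjusted p from 5.9e-04 to 0.0092). Those most like ERAP2 were SPRED2 (an inhibitor of RAS-ERK signalling), MYO5B (a myosin motor) and CEMIP (a hyaluronan-binding protein), with r from 0.9902 to 0.9978. SPRED2 and CEMIP passed, with log2 fold changes of -0.33 and -1.10, and MYO5B had -0.24 (adjusted p = 0.174). Likeness over 6 dishes is common: 10.2% of those genes had r over 0.9 with TAPBP and 3.19% with ERAP2. The genes named were picked over the same 6 dishes, group difference included, so their calls are no separate evidence.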

How the data were processed

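Libraries were made from 3 µg of total RNA per dish after poly-T selection, per the labels' protocols, with a kit that keeps no strand information. The authors deposited a table of unnormalized read counts per gene for the 6 dishes. CASAVA 1.8, STAR 2.5.1b, HTSeq 0.6.0 and build hg19 are listed, per the submitters' processing notes. For the annotation and strand setting of the counting, the sources used here give nothing. A second deposited table holds a signal, the raw count over a factor of its dish, and was used only for its factors. Of 57773 IDs, 51996 were named from a gene table and 98 from GENCODE 29, which is on another build, so counted genes have no coordinates here.

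Counts of all 6 dishes were fitted in R 4.3.3 with edgeR 4.0.16 (filterByExpr, TMM, robust glmQLFit, glmQLFTest, no covariates), and p-values were adjusted by Benjamini-Hochberg over 15818 genes. SE is the absolute log2 fold change over the square root of F. Correlations used log2 CPM with a prior count of 2. The fit was tested on simulated data. Alternatives were relative log expression, upper-quartile and deposited factors, DESeq2 1.42.0, limma-voom (limma 3.58.1), other filters, an FDR of 0.01, a replicate block, each dish left out, and a GC and exon-length offset (splines, 5 degrees of freedom). Named are the 9 genes, CD274, PSMB9, list genes that passed or otherwise up to 2 abundant ones, markers, and the 3 genes most like each presentation gene that passed. Genes, lists and alternatives were chosen with earlier results of these data known. The B-cell marker list is not reported here.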

Additional observations from a re-analysis of the deposited data

How the results depend on the processing

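TAPBP kept its direction and its call in all 17 alternative fits. The number of lower presentation genes was 2, and it became 1 with upper-quartile scaling, with DESeq2 and at an FDR of 0.01, and ranged from 1 to 4 when 1 dish was left out. It was 4 without PD-L1 dish 3, where calls over all genes rose as well. The number of higher ones was 0, but 1 under the GC and length offset, alone or without PD-L1 dish 3. Over all genes, 245 were higher and 1139 lower. The higher calls numbered 379 with upper-quartile scaling, 809 with the GC and length offset, 1586 with that offset without PD-L1 dish 3 (53.9% of calls lower), 411 with the offset and the replicate block, and 22 at an FDR of 0.01. The lower calls numbered 1852 with the offset without PD-L1 dish 3 and 508 at an FDR of 0.01. Leaving out 1 dish gave 35 (without Vector dish 1) to 1271 (without PD-L1 dish 3) higher and 510 to 2241 lower calls, for the same dishes. The lower share of calls was 82.3%, but 72.8% with upper-quartile scaling and 61.5% with the GC and length offset, 71.1% with the offset and block, 63.8% without PD-L1 dish 3, and 88.7 to 93.6% without any 1 other dish. Signs turned for 3 genes that did not pass over all 6 dishes: HLA-C was at -0.024 without PD-L1 dish 3, HLA-E was at 0.016 with the offset and 0.014 with the offset and the block, and with 1 dish left out HLA-C ranged from -0.024 to 0.17, HLA-E from -0.19 to 0.018 and ERAP1 from -0.21 to 0.020. The log2 difference of the TAP1 to TAP2 ratio ranged from -0.040 to 0.17 when 1 dish was left out. The causes were not tested.

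Deviations of same-numbered dishes from their group means correlated at -0.46, -0.17 and -0.46. Those of differently numbered dishes correlated at -0.14 to 0.41. The 3 deviations of a group sum to 0, so these values cannot decide whether the numbers mark shared handling. With the replicate block, 2 presentation genes were lower and 0 higher, and 238 genes in all were higher and 1209 lower. The block ended the calls of PSME2 (adjusted p = 0.0504) and IFNGR1 (0.169) and made that of PSMB9 (0.0205) in edgeR. For the ratios, pairing by number cannot change the mean difference, and 3 pairs allow no exact p below 0.25. PSMB9 has no value under the filter of 5 CPM.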
